A study of Mus musculus with 9 samples.

Results

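Spp1, the gene of the secreted phosphoprotein osteopontin, was followed across 9 RNA libraries of mouse embryos. Genes of integrin subunits, here called receptor genes, were followed with it. The set was chosen by gene symbol and holds 9 names: Spp1, Itgav, Itgb1, Itgb3, Itgb5, Itga5, Itga6, Itga9 and Cd44. Of these, 8 have a row among the 19359 genes of the deposited table, and all 8 passed the filter on low values that left 14876 genes. Cd44, a hyaluronan receptor that also binds osteopontin, was not analysed here. Spp1 was chosen on its difference between early transfer and sham embryos, so its values in that contrast are a description and carry no test.

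The embryos fell into 3 groups of 3 libraries, each library (A, B or C) made from a pool of 3 embryos taken 34 h after fertilization. EPN embryos had early pronuclear transfer, LPN embryos had the same transfer at a later time, and SPN embryos, the controls, had a sham transfer. In pronuclear transfer, the pronuclei of one fertilized egg are placed into the enucleated cytoplasm of another egg. All groups share egg donors of the B6D2F1 hybrid strain, aged 8 to 12 weeks. For mature eggs the females were given 7 to 8 IU of PMSG and then 5 IU of hCG, and the cumulus was removed with hyaluronidase. The treatment text common to all samples also describes ovarian oocytes held in milrinone, an inhibitor of meiotic resumption, and cytoplasts from selectively enucleated oocytes, without saying which group used them. The labels do not give the days, matings or operators behind each pool, so p-values here reflect the spread among these libraries alone.

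The values are CPM, gene reads put on a common scale across libraries, made from 7611781 to 15559218 reads a library. A single read was worth 0.0643 to 0.131 CPM, and a count of 0 allows up to 3 reads, or 0.193 to 0.394 CPM. These limits cover counting error only, since PCR copies read without molecular identifiers do not count separate molecules. The 7 listed markers of the 2-cell embryo were read in all groups, with a summed level of 2433 to 3850 CPM in EPN, 3058 to 4665 CPM in LPN and 1159 to 2150 CPM in SPN. EPN and LPN thus lay above SPN without overlap, and the part of this order in the level of Spp1 was not tested. Library SPN A stood apart from the other sham libraries: without it, limma called 451 genes in EPN against SPN (16 with it), and for LPN against SPN it called 2733 (1309 with it).

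Osteopontin is an acidic protein of the extracellular matrix that also acts as a secreted cytokine, best known from bone, macrophages and the lining of the uterus. Integrins are pairs of an α and a β subunit in the cell membrane that hold matrix proteins outside and the actin cytoskeleton inside. The pairs αvβ3, αvβ5, αvβ1 and α5β1 recognise the Arg-Gly-Asp (RGD) motif that osteopontin shares with fibronectin and vitronectin, and α9β1 recognises the stretch just after it once thrombin has cut the protein.

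That binding stretch is shown first because it is what links the ligand to the receptor genes below other than Itga6. In the coding sequence of Spp1, on mouse chromosome 5, it covers codons 145 to 147, and the stretch for α9β1 follows directly. Fibronectin (Fn1, chromosome 1) is given beside it, at codons 1614 to 1616. Capitals mark the RGD codons and 30 coding bases stand on either side. Both runs are read 5′ to 3′ from the GENCODE transcripts of the mouse reference, a build older than the one the authors used.
Spp1 bases 403 to 471: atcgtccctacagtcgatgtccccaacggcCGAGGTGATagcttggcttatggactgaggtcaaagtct
Fn1 bases 4810 to 4878: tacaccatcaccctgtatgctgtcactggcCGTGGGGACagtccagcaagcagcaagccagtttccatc
The 2 genes spell the motif with different codons. All 4 annotated Spp1 transcripts with a start codon hold the motif. Of 22007 mouse genes with a full coding sequence, 1600, or 7.27%, hold an in-frame RGD. It occurs in 13 of the 23 listed genes of extracellular matrix ligands.

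Spp1 was high in the early transfer embryos and low in both other groups. It had 25.6, 39.8 and 19.4 CPM in EPN libraries A, B and C, 0, 5.12 and 3.85 CPM in LPN libraries A, B and C, and 5.95, 1.51 and 0 CPM in SPN libraries A, B and C. Each EPN library lay above every LPN and every SPN library, while LPN and SPN overlapped and each held 1 library with no read. The values rest on 354, 509 and 259 reads in EPN, 0, 39 and 46 reads in LPN, and 83, 17 and 0 reads in SPN. A count of 0 allows up to 0.193 CPM in LPN A and 0.262 CPM in SPN C, so these libraries held well under the lowest EPN value.

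**Figure D1:**
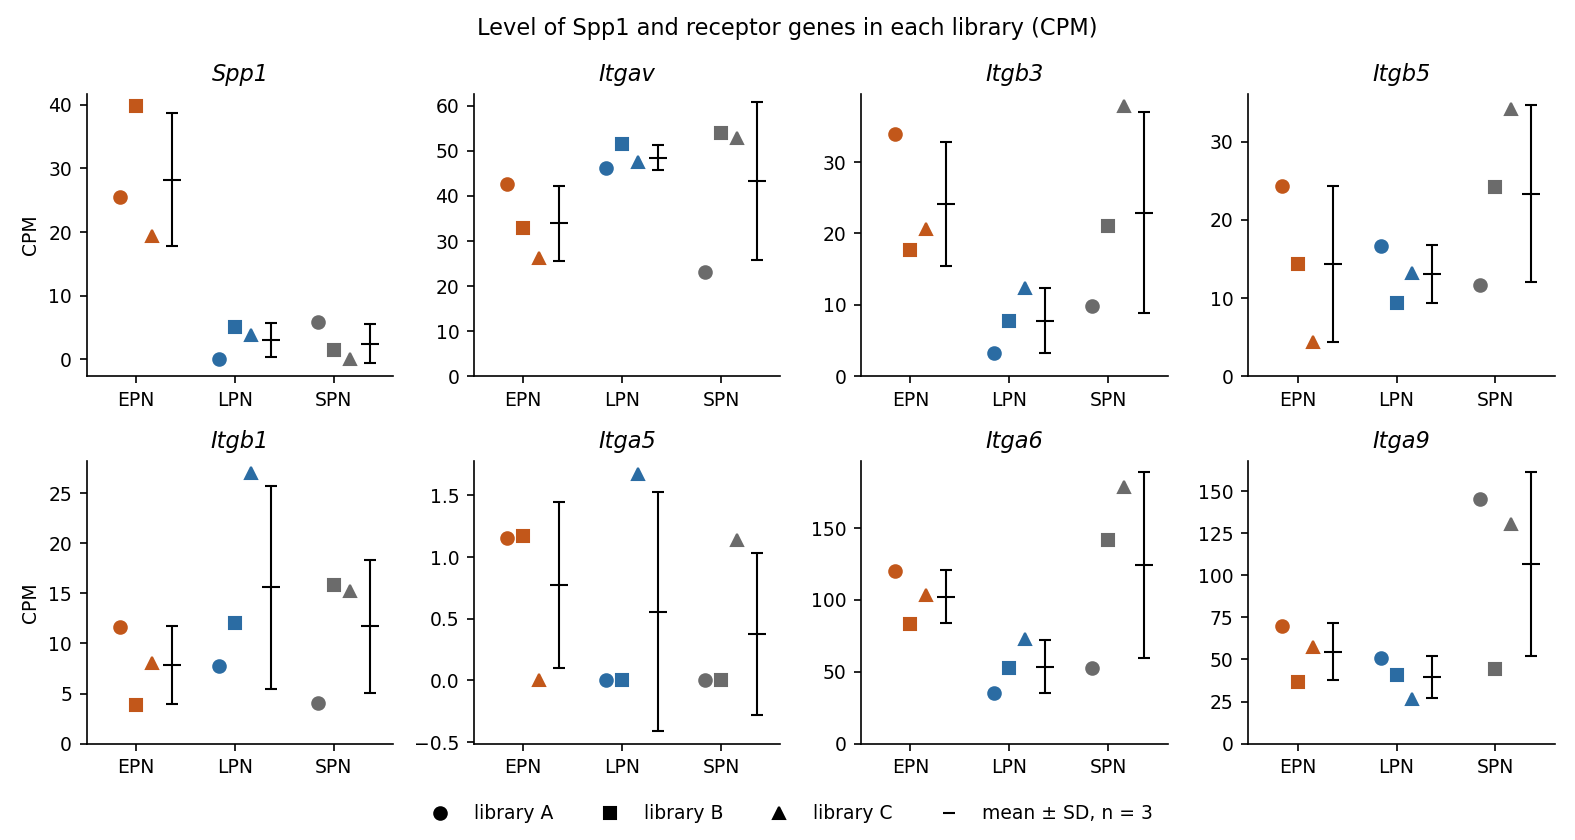
Level of Spp1 and the 7 receptor genes in CPM (y axis, one scale per gene) in the EPN, LPN and SPN libraries; the symbol gives the library letter, and the bar beside each group is the mean ± SD (n = 3). The 3 EPN libraries of Spp1, at 19.4 to 39.8 CPM, lie above all others, and the sham libraries of most receptors are widely spread.

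The mean was 28.3 ± 10.4 CPM in EPN, 2.99 ± 2.67 CPM in LPN and 2.48 ± 3.09 CPM in SPN (SD, n = 3 each). On the log2(CPM + 1) scale the difference of Spp1 was 3.44 (SE 0.72) for EPN against SPN, a 10.8-fold difference. It was 4.15 without SPN A. Over 14 alternative settings, which include leaving out each library in turn, it ran from 2.75 to 4.78. The difference for LPN against EPN was -3.18 (SE 0.72) and ran from -4.41 to -2.36. That contrast uses the EPN libraries that chose the gene, so it has no test either. The SE of either difference describes spread and is not to be read as a test.

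For LPN against SPN the log2 difference of Spp1 was 0.26 (SE 0.72, 95% interval -1.21 to 1.72; limma adjusted p = 0.855), in a contrast that shares the SPN libraries with the one that chose the gene. That interval leaves room for a change of over 2-fold in either direction, and the sign turned when LPN B, LPN C or SPN C was left out. Without SPN A the difference was 0.97 (limma adjusted p = 0.399). So the low Spp1 of LPN and SPN embryos could not be told apart at this replication. In pooled embryos, fewer cells with the transcript and less of it per cell cannot be told apart.

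The region around the start of Spp1 is shown because its level is what differs. Both stretches are from RefSeq windows of assembly GRCm38.p6, plus strand, 5′ to 3′. The first lies upstream of the first exon of the longer transcripts, and its capitals mark a CCAAT box read on the minus strand. Capitals in the other one mark the octamer ATGCAAAT, the letters recognised by Oct4, the POU factor encoded by Pou5f1.
Spp1 upstream, chr5:104435025-104435109: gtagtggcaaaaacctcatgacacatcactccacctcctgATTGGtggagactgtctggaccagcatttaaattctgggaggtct
Spp1 octamer, chr5:104435942-104436029: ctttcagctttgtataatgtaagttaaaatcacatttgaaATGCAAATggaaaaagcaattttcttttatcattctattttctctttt
The octamer falls in the first intron of 3 of the 4 annotated Spp1 transcripts; in mouse embryonal carcinoma cells this intron is known as a site of Oct4 and Sox2 binding. Searched on both strands, CCAAT occurs in 37.4% and ATGCAAAT in 1.74% of 32817 start windows of the same length. Other motifs were searched too. A Runx motif (AACCACA, in 5.27% of windows) and the letters of a TATA box (TATAAA, in 13.6%) matched the first Spp1 window. They lay, in that order, at offsets of -129 and -211 bases from its annotated start. The AP-1 motif TGACTCA and the Usf motif CACGTG matched neither. A match describes the letters and not a bound site. Pou5f1 itself had 57.9, 31.1 and 49.2 CPM in EPN, 9.83, 9.06 and 8.88 CPM in LPN, and 27.0, 21.0 and 33.9 CPM in SPN, so LPN lay below both other groups and EPN overlapped SPN.

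No receptor gene was called between the groups that differed in Spp1. Few genes of any kind were called there, so a count of 0 in 7 does not set the receptors apart. None of the 7 passed the test in EPN against SPN, where 0.108% of all tested genes were called (limma, Benjamini-Hochberg adjusted p under 0.05), and 1 had an unadjusted p under 0.05. With DESeq2 on the recovered reads, which called 0.78% of all tested genes, the count was also 0. With edgeR it was 0 too, but edgeR called 0 of all tested genes here, so it could not have differed. The groups overlapped for all 7, against 14.6% of all genes whose groups did not overlap. Their median log2 difference was -0.28, beside -0.07 for all genes, and it moved to -0.65 without SPN A and to -0.06 without EPN B.

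Itgav encodes the αv subunit, the partner shared by β1, β3 and β5 in the classical osteopontin receptors. It had 42.6, 33.0 and 26.1 CPM in EPN, 46.3, 51.6 and 47.6 CPM in LPN, and 23.1, 54.0 and 52.9 CPM in SPN. The LPN libraries lay above all EPN libraries, and the low SPN A, at 23.1 CPM, made the sham group overlap both. Its log2 difference was -0.28 in EPN against SPN (SE 0.38, 95% interval -1.05 to 0.50; limma adjusted p = 0.829). It was -0.67 without SPN A and -0.07 without SPN B. For LPN against EPN it was 0.53 (SE 0.38; limma adjusted p = 0.459).

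Itgb3 encodes β3, which pairs with αv. It had 34.0, 17.7 and 20.7 CPM in EPN, 3.21, 7.75 and 12.3 CPM in LPN, and 9.89, 21.0 and 37.9 CPM in SPN. All LPN libraries lay below all EPN libraries, and only SPN A of the sham group reached down into the LPN range. Its log2 difference was -1.62 in LPN against EPN (SE 0.53; limma adjusted p = 0.0965), and against SPN it was -1.42 (SE 0.53; limma adjusted p = 0.0841), neither of which passed. Without SPN A the sham comparison stood at -1.89 and passed (limma adjusted p = 0.0189). Between EPN and SPN the log2 difference was 0.20 (SE 0.53, 95% interval -0.88 to 1.29) and turned to -0.27 without SPN A and to -0.06 without EPN A.

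Itgb5, which encodes the β5 partner of αv, had 24.4, 14.3 and 4.34 CPM in EPN, 16.6, 9.33 and 13.2 CPM in LPN, and 11.7, 24.2 and 34.2 CPM in SPN. Itgb1 encodes β1, the partner of α5, α6, α9 and αv. It had 11.6, 3.91 and 8.09 CPM in EPN, 7.71, 12.1 and 27.1 CPM in LPN, and 4.08, 15.9 and 15.2 CPM in SPN. All groups overlapped for both genes, and their 6 log2 differences ran from -0.81 for Itgb5 in EPN against SPN to 0.84 for Itgb1 in LPN against EPN, with SE 0.54 to 0.59 and none called. Without SPN A the EPN against SPN differences were -1.22 for Itgb5 and -1.002 for Itgb1; without EPN C that of Itgb5 was -0.19, and without EPN B that of Itgb1 was -0.06.

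Among the receptor genes, Itga6 had the highest level per kilobase. It encodes α6, which pairs with β1 or β4 and is best known as a laminin receptor. The α6 subunit is not part of the osteopontin-binding pairs named above. Itga6 had 120, 83.6 and 103 CPM in EPN, 35.5, 52.8 and 72.6 CPM in LPN, and 52.9, 141 and 179 CPM in SPN. The LPN libraries lay below all EPN libraries and below SPN B and SPN C, but SPN A lay within the LPN range. Its log2 difference was -0.96 in LPN against EPN (SE 0.37; limma adjusted p = 0.153) and -1.09 in LPN against SPN (SE 0.37; limma adjusted p = 0.0605). Without SPN A the sham comparison was -1.61 and passed (limma adjusted p = 0.00214), and 5 of the 14 alternatives called it. Between EPN and SPN it was -0.12 (SE 0.37), and -0.65 without SPN A.

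Itga9 was the 1 receptor gene that passed a test. It encodes α9, which with β1 binds the thrombin-cleaved form of osteopontin. Itga9 had 69.8, 36.7 and 57.5 CPM in EPN, 51.2, 41.0 and 26.6 CPM in LPN, and 145, 44.4 and 130 CPM in SPN. SPN A and SPN C lay above all other libraries, while SPN B lay within the LPN and EPN ranges. Itga9 fell in LPN against SPN, with a log2 difference of -1.28, or 2.43-fold (SE 0.40; limma adjusted p = 0.0399). That call stood under 4 of 14 alternatives, whose adjusted p ran from 0.0125 to 0.214. It ended without SPN A (-0.98, adjusted p = 0.109), without SPN C (-1.05, 0.214), without any one of the LPN libraries (0.0531 to 0.128), with edgeR (0.094), with median-of-ratios scaling (-1.10, 0.0865), with a pseudocount of 0.1 CPM, with no filter and with a fit of the 6 libraries. The log2 difference was -0.83 in EPN against SPN (SE 0.40; limma adjusted p = 0.437; -0.52 without SPN A and -1.36 without SPN B) and -0.46 in LPN against EPN (SE 0.40; limma adjusted p = 0.550).

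Itga5, whose product pairs with β1 as the main fibronectin receptor, was near the detection limit. It had 1.16, 1.17 and 0 CPM in EPN, 0, 0 and 1.68 CPM in LPN, and 0, 0 and 1.14 CPM in SPN. In all 9 libraries together it had 64 reads. No difference of Itga5 between groups was detectable at this depth.

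**Figure D2:**
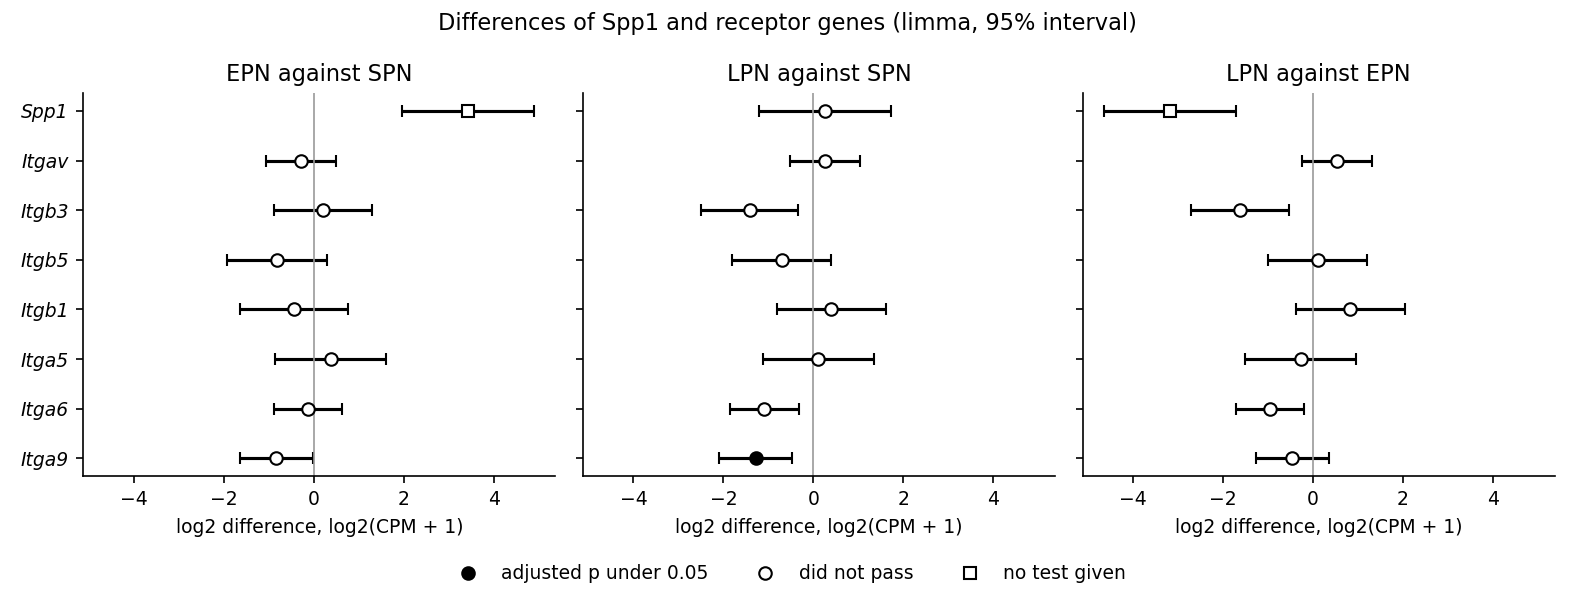
Differences of the 8 genes between groups on the log2(CPM + 1) scale (x axis), with 95% intervals from limma, for EPN against SPN, LPN against SPN and LPN against EPN; filled circles passed at an adjusted p under 0.05, open circles did not, and squares have no test. Only Itga9 in LPN against SPN, at -1.28, is filled, and Spp1 lies at 3.44 for EPN against SPN and at -3.18 for LPN against EPN. The intervals of the Spp1 squares describe spread and are not a test, since libraries of these contrasts chose the gene.

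Over the 7 receptors, then, 0 rose and 1 fell in LPN against SPN, where 8.8% of all tested genes were called, 3.26% higher and 5.54% lower. The count without SPN A was 2, Itgb3 and Itga6, at 18.4% of all genes called. No receptor was called in LPN against EPN, where 1.53% of genes were called, 0.692% higher and 0.84% lower, and 2 receptors had an unadjusted p under 0.05. The count there was 0 with edgeR, which called 0.114% of all genes, and with DESeq2, which called 6.22%. In 7 genes such counts do not set the receptors apart from other genes. Groups did not overlap for 0 of 7 receptors in LPN against SPN, beside 27.5% of all genes. For LPN against EPN they did not overlap for 3 of 7, Itgav, Itgb3 and Itga6, beside 26.6% of all genes.

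SPN A lay below both other sham libraries for 5 of 7 receptors, namely Itgav, Itgb1, Itgb3, Itgb5 and Itga6, and above both for Itga9. Among all tested genes SPN A was below both in 45.7% and above both in 26.8%. The median log2 difference of the receptors was -0.71 for LPN against SPN and -0.27 for LPN against EPN, beside -0.17 and -0.14 for all genes. Median-of-ratios scaling brought the median of all genes to -0.03 in LPN against SPN and that of the receptors to -0.53.

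Levels of different genes were set side by side per kilobase of annotated exon. In EPN embryos the order was Itga6 at 23.4 ± 4.18 CPM per kb, Spp1 at 17.1 ± 6.33, Itga9 at 7.65 ± 2.34, Itgav at 4.81 ± 1.18, Itgb5 at 4.23 ± 2.95, Itgb3 at 4.17 ± 1.496, Itgb1 at 2.06 ± 1.01 and Itga5 at 0.177 ± 0.153 CPM per kb (SD, n = 3). Spp1 was thus within its own SD of Itga6 and lay above Itga9 by more than either SD. In LPN embryos Spp1 averaged 1.82 ± 1.62 CPM per kb and in SPN embryos 1.51 ± 1.88 CPM per kb, and only Itgb3 in LPN, at 1.34 ± 0.787, and Itga5 in both groups had lower means. Itga6 kept the highest mean in both, at 12.3 ± 4.26 CPM per kb in LPN and 28.5 ± 14.8 CPM per kb in SPN. Within EPN embryos the adjacent pairs Itgav and Itgb5, and Itgb5 and Itgb3, differed by less than their SDs.

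The 5 genes whose levels were most like Spp1 over the 9 libraries, by Pearson's r on log2(CPM + 1) among 9817 genes that averaged 5 CPM or more, were Arhgap5 (0.958), Gpatch8 (0.939), Rhcg (0.925), Tmed9 (0.912) and Cypt2 (0.910). The middle 95% of those genes lay between -0.73 and 0.68. These correlations are descriptions over 9 libraries that also differ by group and depth. Without EPN B and SPN C, the libraries farthest from the median of Spp1, r was 0.880 to 0.935. With median-of-ratios scaling r was 0.897 to 0.936 and Gpatch8 ranked ninth.

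Arhgap5 encodes a GTPase-activating protein. It had 24.3, 41.3 and 27.1 CPM in EPN, 8.74, 17.6 and 21.5 CPM in LPN, and 19.9, 10.6 and 7.44 CPM in SPN. Rhcg encodes an ammonia transporter of the Rh family. Its level was 29.1, 17.7 and 10.9 CPM in EPN, 0.643, 4.20 and 7.54 CPM in LPN, and 10.6, 3.10 and 2.27 CPM in SPN. For both genes the EPN libraries lay above all others, as they did for Gpatch8, Cypt2 and Tmed9, a cargo receptor of the early secretory pathway. Among the receptors r with Spp1 ran from -0.56 for Itgav to 0.31 for Itgb3, inside that middle range.

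**Figure D3:**
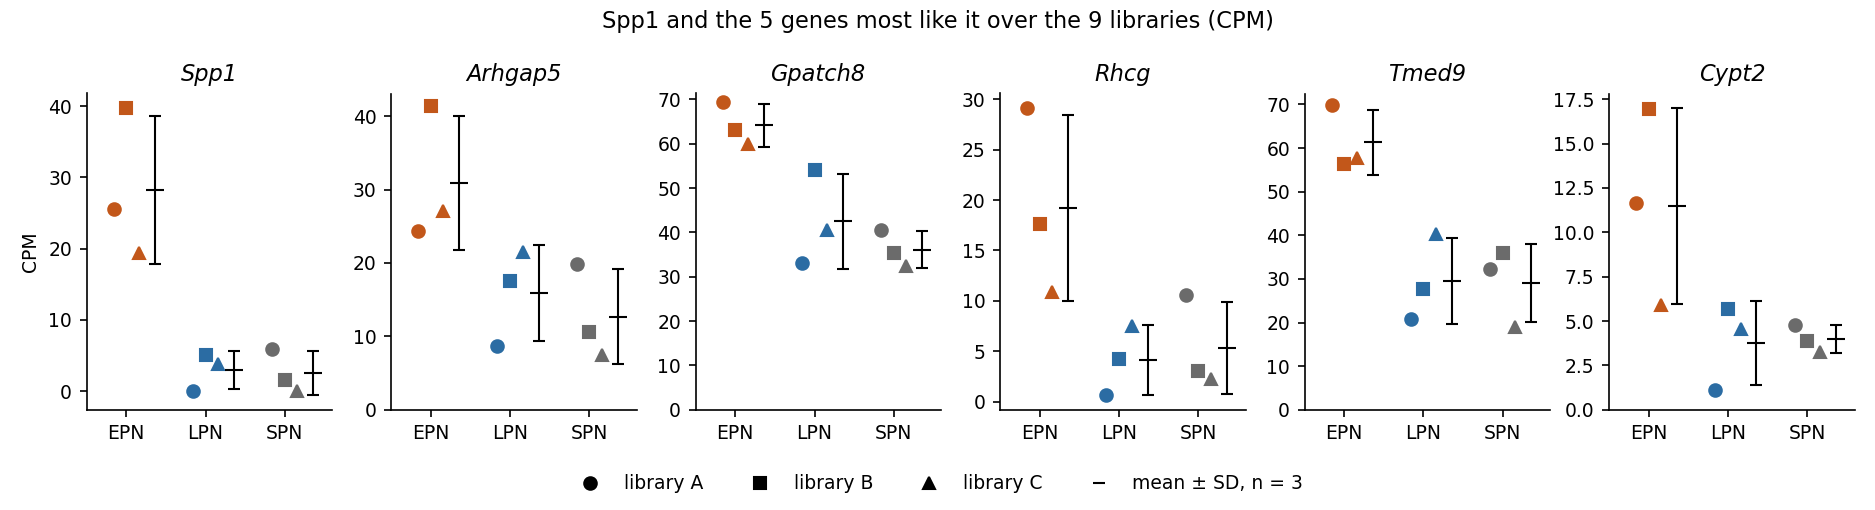
Level in CPM (y axis, one scale per gene) of Spp1 and the 5 genes with the highest Pearson's r with it, in the EPN, LPN and SPN libraries; symbols give the library letter and bars the mean ± SD (n = 3). All 6 genes have their 3 EPN libraries above the LPN and SPN libraries, as for Spp1 at 19.4 to 39.8 CPM, since the genes were ranked on these same values.

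Wider lists of osteopontin and integrin biology, 147 genes of which 103 were tested, were read in the same fits. In EPN against SPN 0 of 103 passed, where 0.108% of all genes were called. DESeq2 also called 0 of them, beside 0.78% of all genes, while edgeR called 0 of all tested genes. An unadjusted p under 0.05 was reached by 6 of the 103, beside 1643 of all 14876 genes. Without SPN A 2 rose, the tetraspanin genes Cd9 and Cd63, beside 3.03% of all genes called. In LPN against SPN 1 rose and 8 fell, beside 8.8% of all genes called. Without SPN A 4 rose and 18 fell, beside 18.4% of all genes. Without LPN B, SPN B or SPN C 1 fell, beside 1.37%, 3.01% and 0.645% of all genes called. In LPN against EPN 0 rose and 4 fell, beside 0.692% higher and 0.84% lower among all genes. None passed without EPN A, EPN C, LPN A or LPN B, where 0.0269% to 0.121% of all genes were called.

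Of the other ligands of the extracellular matrix, 0 of 17 tested passed in any comparison. Among all tested genes, 0.108% were called between early transfer and sham embryos, 8.8% between late transfer and sham, and 1.53% between late and early transfer. With such shares, a count of 0 in a list of 17 does not set these ligands apart from other genes. Fn1, which encodes fibronectin, had 16.0, 20.9 and 12.6 CPM in EPN, 8.10, 7.36 and 2.35 CPM in LPN, and 13.5, 6.56 and 4.90 CPM in SPN. Its EPN libraries lay above all LPN libraries and overlapped SPN through EPN C and SPN A (EPN against SPN log2 difference 0.99, SE 0.57, limma adjusted p = 0.538; LPN against EPN -1.44, SE 0.57, limma adjusted p = 0.165). Nid1, which encodes the basement membrane linker nidogen, had a log2 difference of 1.67 in LPN against SPN (SE 0.64; limma adjusted p = 0.0921). The vitronectin gene Vtn stayed between 0 and 1.51 CPM in the 9 libraries.

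Neither of the lists closest to the ligand and its receptors held a call in the limma fit of all 9 libraries. Among 6 tested osteopontin relatives and modifying enzymes 0 passed in any comparison, including the metalloprotease gene Mmp9 (9.25, 0 and 9.44 CPM in EPN, 0, 0 and 0.754 CPM in LPN, 1.86, 0 and 2.27 CPM in SPN). Among 10 tested other integrin subunits 0 passed. Lists of 6 and 10 genes are also too short for a count of 0 to set them apart from the shares of all genes given above. Itgae, the αE subunit of lymphocytes, had 66.5, 72.8 and 25.5 CPM in EPN, 103, 117 and 63.8 CPM in LPN, and 31.8, 41.6 and 54.2 CPM in SPN. LPN lay above SPN in all libraries, and the log2 difference of 1.12 (SE 0.38) came close to the threshold (limma adjusted p = 0.0585). Itgae was called with a mean of at least 5 CPM, median-of-ratios scaling, DESeq2, the replicate block or without LPN C. Itga8, an RGD-binding α subunit, went the other way, at 7.65, 1.18 and 6.95 CPM in LPN and 16.0, 15.4 and 15.4 CPM in SPN (log2 difference -1.64, SE 0.59; limma adjusted p = 0.071).

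The adhesion machinery inside the cell had 33 tested genes, of which 0 rose and 2 fell in LPN against SPN, beside 5.54% of all genes that fell. Pak1, a kinase downstream of Rac and Cdc42, fell to 44.7, 30.7 and 30.7 CPM in LPN, against 54.5, 101 and 104 CPM in SPN (log2 difference -1.23, SE 0.35; limma adjusted p = 0.0299). Rap1a, a small GTPase that activates integrins, fell to 23.5, 21.3 and 10.1 CPM in LPN, against 42.1, 37.7 and 57.0 CPM in SPN (-1.33, SE 0.40; limma adjusted p = 0.0357). In LPN against EPN, Fermt2 fell, to 57.0, 43.0 and 82.7 CPM in LPN, against 146, 127 and 187 CPM in EPN (-1.35, SE 0.32; limma adjusted p = 0.0378). Fermt2 encodes kindlin-2, which binds the tails of β subunits. The groups did not overlap for these 3 genes, which were named because they passed on the same values. Groups did not overlap for 10 of the 33 in LPN against SPN, beside 27.5% of all genes. In LPN against EPN it was 9 of 33, beside 26.6%. Leaving out LPN B, LPN C, SPN B or SPN C ended the calls of Pak1 (adjusted p 0.0626 to 0.170) and Rap1a (0.0658 to 0.181), and that of Fermt2 ended without any one EPN library, LPN A or LPN B (0.0526 to 0.194). With edgeR all 3 calls ended, with DESeq2 that of Rap1a, and the calls held under 7 (Pak1), 5 (Rap1a) and 6 (Fermt2) of 14 alternatives.

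For CD44, whose own gene is not among the values, 11 genes of partners and hyaluronan enzymes were tested, and 3 fell in LPN against SPN, beside 5.54% of all genes. Esrp1, an epithelial splicing regulator that acts on the Cd44 transcript, fell to 57.3, 54.7 and 61.7 CPM in LPN, against 85.1, 179 and 202 CPM in SPN (log2 difference -1.32, SE 0.32; limma adjusted p = 0.0128). Rdx encodes radixin, which ties CD44 to actin. It fell to 95.7, 77.8 and 91.7 CPM in LPN, against 157, 200 and 222 CPM in SPN (-1.11, SE 0.28; limma adjusted p = 0.0157), and it also fell against EPN, which had 208, 183 and 208 CPM (-1.17, SE 0.28; limma adjusted p = 0.0378). Sdc1, a heparan sulfate proteoglycan gene, fell as well (-1.56, SE 0.49; limma adjusted p = 0.0415). Without LPN B, SPN B or SPN C the calls of Esrp1 (adjusted p 0.0646 to 0.125) and Rdx (0.0593 to 0.109) against SPN ended, and that of Sdc1 ended without LPN A as well (0.103 to 0.237). The call of Rdx against EPN ended without any one EPN library, LPN A or LPN B (0.0604 to 0.195). Of 14 alternatives, 11 kept the call of Esrp1, 10 that of Rdx and 5 that of Sdc1 against SPN, and 5 that of Rdx against EPN; edgeR ended all but that of Esrp1.

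Among 13 tested genes of integrin trafficking and tetraspanins, 1 rose and 1 fell in LPN against SPN, beside 3.26% of all genes higher and 5.54% lower. Cd9, a tetraspanin of the egg membrane needed for sperm fusion, rose to 191, 213 and 161.4 CPM in LPN, against 160.7, 99.2 and 40.1 CPM in SPN (log2 difference 1.11, SE 0.35; limma adjusted p = 0.0447). The highest sham value, SPN A at 160.7 CPM, lay just under the lowest LPN value, and without SPN A the difference was 1.55. Rab4a, a GTPase of rapid integrin recycling, fell to 17.7, 23.8 and 29.2 CPM in LPN, against 42.5, 65.5 and 91.1 CPM in SPN (-1.42, SE 0.40; limma adjusted p = 0.0287). The call of Cd9 ended when any library but SPN A was left out (adjusted p 0.0564 to 0.367; log2 difference 0.56 without SPN C), and that of Rab4a ended without LPN A, LPN B, SPN B or SPN C (0.0803 to 0.182). With edgeR both calls ended and with DESeq2 that of Cd9, and of 14 alternatives 4 kept the call of Cd9 and 8 that of Rab4a.

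Of 13 tested factors known to bind the osteopontin gene, 0 rose and 2 fell, each both in LPN against SPN, where 5.54% of all genes fell, and in LPN against EPN, where 0.84% fell. Lef1, the Wnt-pathway factor, fell to 18.7, 11.2 and 14.5 CPM in LPN, against 56.8, 47.9 and 75.4 CPM in SPN (log2 difference -1.95, SE 0.38; limma adjusted p = 0.00333), and the call held under all 14 alternatives. It also fell against EPN, at 46.0, 35.0 and 43.8 CPM (-1.45, SE 0.38; limma adjusted p = 0.0439), a call that ended when any 1 of the 6 libraries was left out (0.0584 to 0.210) and held under 4 of 14 alternatives. Pou5f1, with the values given above, fell in LPN against SPN (-1.44, SE 0.42; limma adjusted p = 0.0314) and in LPN against EPN (-2.15, SE 0.42; limma adjusted p = 0.0149). The first call ended without any 1 library but SPN A (0.0520 to 0.167), and the other without EPN A, EPN C, LPN A or LPN B (0.0537 to 0.113); 7 and 9 of 14 alternatives kept them. In EPN against SPN its log2 difference was 0.71 (SE 0.42; limma adjusted p = 0.549). Sox2 was low everywhere, at 2.77 to 6.56 CPM in EPN, 0 to 4.52 CPM in LPN and 2.94 to 8.40 CPM in SPN.

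**Figure D4:**
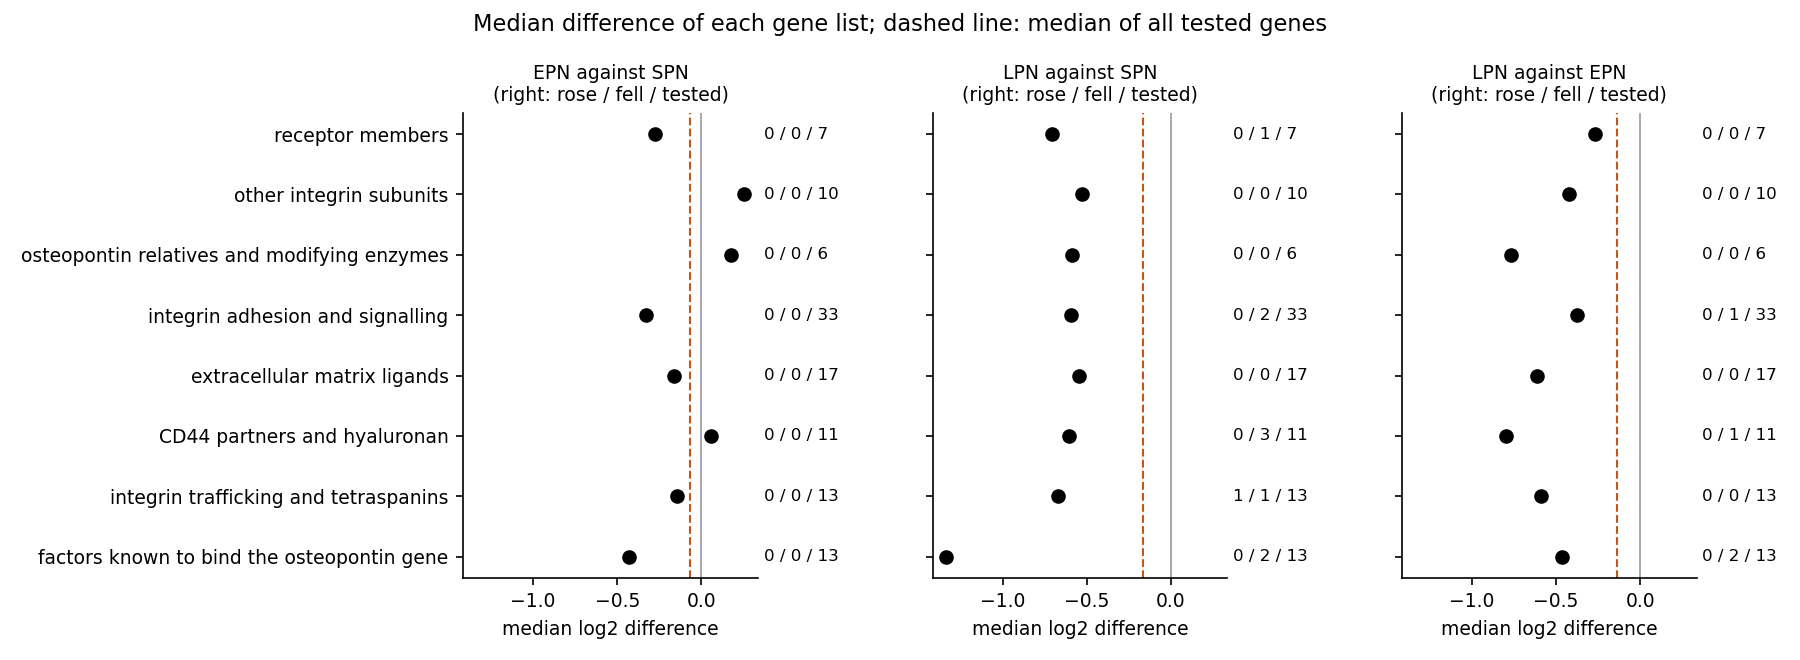
Median log2 difference (x axis) of the 7 receptor genes and of each wider list in EPN against SPN, LPN against SPN and LPN against EPN, with the median of all tested genes as a dashed line; the numbers at the right of each panel are the genes that rose, fell and were tested. No gene of these lists was called in EPN against SPN; for LPN against SPN the factors list lies lowest, at a median of -1.34 beside -0.17 for all genes.

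Marker genes of cells that could accompany an embryo or that express osteopontin were summed in each library. Of 8 macrophage and leukocyte markers, 5 had a row, and their sum was 6.59 to 15.5 CPM in EPN, 9.58 to 18.9 CPM in LPN and 5.32 to 18.1 CPM in SPN, with all groups overlapping. Of 10 cumulus and granulosa markers, 7 had a row, and their sum was 16.4 to 34.0 CPM in EPN, 10.9 to 22.2 CPM in LPN and 12.0 to 17.8 CPM in SPN; Foxl2, a defining granulosa gene, was at 0 in all 9 libraries. Within that list Tnfaip6, a hyaluronan-linked gene of the expanded cumulus, had 23.7, 14.6 and 11.5 CPM in EPN, 4.37, 10.2 and 15.5 CPM in LPN, and 10.8, 2.13 and 2.45 CPM in SPN. EPN thus lay above SPN for Tnfaip6 (log2 difference 1.75, SE 0.61, limma adjusted p = 0.270). Tnfaip6 is 1 of the 7 markers with a row. The sums of the list overlapped between EPN and SPN only from 16.4 to 17.8 CPM, and the highest sum was in EPN. The part of such cells in the level of Spp1 was not tested.

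The remaining marker sums describe the embryos themselves and their surroundings. Of 6 oviduct epithelium markers, 4 had a row and summed to 216 to 238 CPM in EPN, 103 to 235 CPM in LPN and 152 to 187 CPM in SPN, most of it Epcam, which embryos also express, with Krt7 at 0 in all 9 libraries. The 2 blood and platelet markers of 8 with a row summed to 33.9 to 79.8 CPM in EPN, 9.32 to 26.1 CPM in LPN and 36.03 to 100.4 CPM in SPN. The 9 oocyte and egg markers summed to 2073 to 2606 CPM in EPN, 1241 to 1887 CPM in LPN and 2727 to 3472 CPM in SPN. For that last list SPN lay over EPN and EPN over LPN without overlap, and the part of this order in the receptor levels was not tested.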

How the data were processed

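RNA from 9 libraries of pooled mouse embryos was analysed. The tools listed in the submitters' processing notes are HISAT2 2.2.1, Trim Galore 0.6.7, edgeR and R 3.3.3, with the GRCm39 assembly. No read counter or annotation is given in the sources used here. CPM was deposited for 19359 genes. In every library 100% of values were whole multiples of 1 read (tolerance 0.01 reads), so whole reads were recovered.

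A gene was tested where 3 or more libraries reached 1 CPM, 14876 in all, as log2(CPM + 1) in 1 limma 3.58.1 model (R 4.3.3) over the 3 groups, two-sided, with Benjamini-Hochberg adjustment over all tested genes in each contrast. Adjusted p under 0.05 is termed a call. A fold change on this log2(CPM + 1) scale understates the change of a low gene. The pipeline was tested on simulated data. On recovered reads edgeR 4.0.16 called 0, 477 and 17 genes in EPN against SPN, LPN against SPN and LPN against EPN, and DESeq2 1.42.0 called 116, 1890 and 926. Other pseudocounts, filters, scaling, group fits, a replicate block and leaving out each library were also tried.

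Members and lists were chosen with earlier results of these data known. The text names every member, up to 4 called genes of each list (or 2 by smallest p where none was called), markers, and the 5 genes most like Spp1; Vtn and Sox2 were added outside this rule. Exon lengths are from GENCODE transcripts of the GRCm38 build, start windows from RefSeq (GRCm38.p6).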

Additional observations from a re-analysis of the deposited data

How the results depend on the processing

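Counts of called genes depended on the settings. In EPN against SPN, with 16 called, the count was 4 with a pseudocount of 0.1 CPM, 0 with no filter, 3 with median-of-ratios scaling, 0 with edgeR, 116 with DESeq2, 0 with a fit of the 6 libraries and 25 with a replicate block, and 0 to 451 with 1 library left out (451 without SPN A). In LPN against SPN, with 1309 called, it was 494 with no filter, 477 with edgeR, 659 with the 6 libraries, 1644 with the replicate block, and 96 to 2733 with 1 library left out (2733 without SPN A, 96 without SPN C). In LPN against EPN, with 228 called, it was 62, 0 and 395 with a pseudocount of 0.1 CPM, no filter and a mean of at least 5 CPM, 17 with edgeR, 926 with DESeq2, 464 with the 6 libraries, 480 with the replicate block, and 4 to 268 with 1 library left out. The cause was not tested. Deviations of libraries from their group means correlated at -0.02 to 0.09 over the 9 pairs with the same letter. Over the 18 pairs with different letters the correlations ran from -0.100 to 0.096. The labels do not say what the letters mean, and a shared day or batch was not tested. With the block, Itga6 passed in LPN against SPN (limma adjusted p = 0.0382).

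The difference of Spp1 became 4.78 for EPN against SPN and -4.41 for LPN against EPN with a pseudocount of 0.1 CPM. In LPN against SPN it turned to -0.23 without LPN B, -0.07 without LPN C and -0.43 without SPN C, and the highest value with 1 library left out was 1.07. With 1 library left out it ran from 2.75 to 4.15 for EPN against SPN and from -3.67 to -2.36 in LPN against EPN. Signs also turned for uncalled receptor genes, given with the other end of their range over the fits with 1 library left out. In LPN against SPN, Itgav was -0.14 without SPN A (highest 0.46), Itgb1 -0.17 without SPN A and -0.06 without LPN C (highest 0.78), and Itga5 -0.37 without LPN C and -0.07 without SPN A or SPN B (highest 0.47). In EPN against SPN, Itgb3 was -0.06 without EPN A and -0.27 without SPN A (highest 0.65), Itga6 was 0.01, 0.05 and 0.22 without EPN B, SPN B and SPN C (lowest -0.65), and the integrin gene Itgb2 was 0.11 without SPN A (lowest -1.17). In LPN against EPN, Itgb5 was -0.52 without EPN C and -0.07 without LPN A (highest 0.60). Of all single-gene values under the alternatives, 97 lost a call of the main fit, 17 gained one and 17 turned sign. Another 2, both of Spp1, moved by more than its residual SD. The remaining 764 include genes uncalled throughout and the untested contrasts of Spp1, so they do not measure how stable the calls were. With 3 pools a group, only large differences could pass.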
